A study of Rattus norvegicus with 12 samples.

Results

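The genes described here encode the ubiquitin-specific proteases, the largest family of deubiquitinating enzymes, in the testis of rat embryos on embryonic day 16. Members were the probe sets whose only annotated gene symbol was Usp followed by a number, with symbols that end in -ps left out. The rule found 83 probe sets of 43 genes among 31099 probe sets on the array, and 73 of them, of 42 genes, passed a filter on dim signals and were tested. The rule also took in Usp6nl, a gene named after a ubiquitin-specific protease that encodes no peptidase (3 probe sets). The groups were the F1, F2 and F3 generations of a vinclozolin lineage and the same generations of a control lineage, with 2 arrays in each of 6 groups. Founder females of the vinclozolin lineage received 100 mg/kg of vinclozolin per day into the abdominal cavity on days 8 to 14 of pregnancy, and founders of the control lineage received sesame oil with DMSO. Vinclozolin is a fungicide whose breakdown products block the androgen receptor. F1 embryos were in the womb during dosing, and F2 and F3 embryos were bred from them with no further dosing in the protocols. Each array held the RNA of about 10 pooled testes, so that p-values measured the spread between RNA pools. For the F2 and F3 vinclozolin groups the protocols name control lines as the source of the breeding pairs, which goes against the titles, and the lineage of the titles was used.

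Ubiquitin is a small protein that is joined to other proteins, singly or in chains, and marks them for destruction in the proteasome, for sorting in endosomes or for a change of partner. Ubiquitin-specific proteases cut ubiquitin off again with a cysteine in their active site, and so rescue, edit or reset their substrates. Each enzyme has its own substrates, among them receptors, histones, kinases and transcription factors. In the adult testis, deubiquitination accompanies the turnover of histones and cytoplasm in developing sperm. On day 16 the rat testis holds Sertoli cells in cords, fetal Leydig cells and germ cells before meiosis.

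The deposited values were linear signal intensities. Markers of Sertoli cells (5 of 6 listed genes on the array) summed to signals of 4513 to 5435 on vinclozolin arrays and 4981 to 5380 on control arrays, and the 5 markers of fetal Leydig cells to 12008 to 14312 and 10971 to 11667. Of 5 germ cell markers only Kit had a probe set with 1 symbol (2.5 to 61.4 on vinclozolin arrays, 61.9 to 80.1 on control arrays). Markers of erythroid cells (5 of 5) summed to 2344 to 3609 and 1670 to 2034, and those of ventral prostate (3 of 4) to 25 to 541.7 and 1.8 to 17.5. The sums for ovary (232.9 to 313.3 and 247.7 to 325.5), skeletal muscle (41.7 to 74.5 and 60.8 to 105.9), mesonephros and kidney (28.9 to 87.5 and 51.3 to 74.2) and liver (18.4 to 69.1 and 19.1 to 50) overlapped between lineages, though the muscle genes Acta1 (6.4 to 13.1 and 24.1 to 29.8) and Myh3 (2.2 to 13.7 and 15.2 to 26.6) did not. The arrays also differed in a measure of RNA integrity. The signal of the 5′ probe set of beta-actin over that of its 3′ probe set was 0.260 ± 0.097 on vinclozolin arrays and 0.453 ± 0.0177 on control arrays (SD, n = 6 each), with an exact permutation test within generations giving the smallest p that its 216 splits allow, 0.00926 (0.0139 adjusted over 3 array measures). This ratio was 0.192 and 0.149 on the F1 vinclozolin arrays, 0.246 and 0.219 on the F2 ones and 0.395 and 0.360 on the F3 ones, against 0.423 to 0.470 on the control arrays. The median signal was 40.6 to 42.85 on vinclozolin arrays and 44.5 to 47.1 on control arrays (same permutation test, p = 0.00926, 0.0139 adjusted). The 5′ to 3′ ratio of Gapdh was 0.814 ± 0.15 and 0.986 ± 0.0223 (same permutation test, p = 0.0463, 0.0463 adjusted). The sums of the Leydig, erythroid and prostate markers and the signals of Kit did not overlap between lineages. The part of the beta-actin ratio in the differences that follow was not tested beyond the fit with this ratio as a covariate. That of Kit and of the Leydig, erythroid, prostate and muscle markers was not tested. In RNA of whole testes, fewer cells of a type and less RNA per cell cannot be told apart.

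In the F1 generation 21 of the 73 probe sets changed (28.8%, against 23.1% of all 21729 tested probe sets), 6 higher and 15 lower in the vinclozolin lineage, in 17 genes. In F2 there were 11 (15.1%, against 14.3% of all), 3 higher and 8 lower in 10 genes. In F3 there were 5 (6.85%, against 3.11% of all), all lower, in 3 genes: Usp7, Usp4 and Usp24. For the mean of the 3 differences there were 28 (38.4%, against 33.3% of all), 6 higher and 22 lower in 22 genes. A change was an adjusted p under 0.05 in limma, with Benjamini-Hochberg adjustment over all tested probe sets. Lower calls made up 13.7% of all tested probe sets in F1, 9.65% in F2, 2.06% in F3 and 19.2% for the mean, and higher calls 9.41%, 4.70%, 1.05% and 14.1%. The median log2 difference of the members, vinclozolin minus control, was −0.11 in F1, −0.09 in F2, −0.11 in F3 and −0.12 for the mean, against −0.01 over all tested probe sets in each case. Both vinclozolin arrays lay below both control arrays for 26 members in F1 (35.6%, against 30.6% of all tested probe sets), 33 in F2 (45.2%, against 30.4%) and 31 in F3 (42.5%, against 29.7%). The difference was negative for 71.2% of members and 51.5% of all tested probe sets in the mean. With each array centred on its median, every difference moved up alike, so that the median was 0.00 for members and 0.10 for all tested probe sets in F1, and −0.03 and 0.09 for the mean. Under quantile and cyclic loess scaling the F1 median was −0.09 and −0.12 for members, against 0.04 and 0.01 for all tested probe sets.

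These counts rest on few arrays. With the log2 beta-actin ratio as a covariate, limma called 0 members in F1, F2 and the mean (8, 9 and 9 at an unadjusted p under 0.05) and 0 of all 21729 probe sets, while the median standard error of a member's F1 difference was 0.59 with the covariate. In F3, where the ratios of the lineages lay closest, 3 members were called in that fit, all of them Usp7. The sign of a called F1, F2 or mean difference turned in that fit for probe sets of Usp4, Usp7, Usp9x, Usp19, Usp24, Usp25, Usp34, Usp37, Usp42, Usp46 and Usp47. In F3 the count was 0 without either of the control arrays (13 and 12 at an unadjusted p under 0.05), 1 without the vinclozolin replicate 2, and 11 without either of the F1 vinclozolin arrays.

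**Figure D1:**
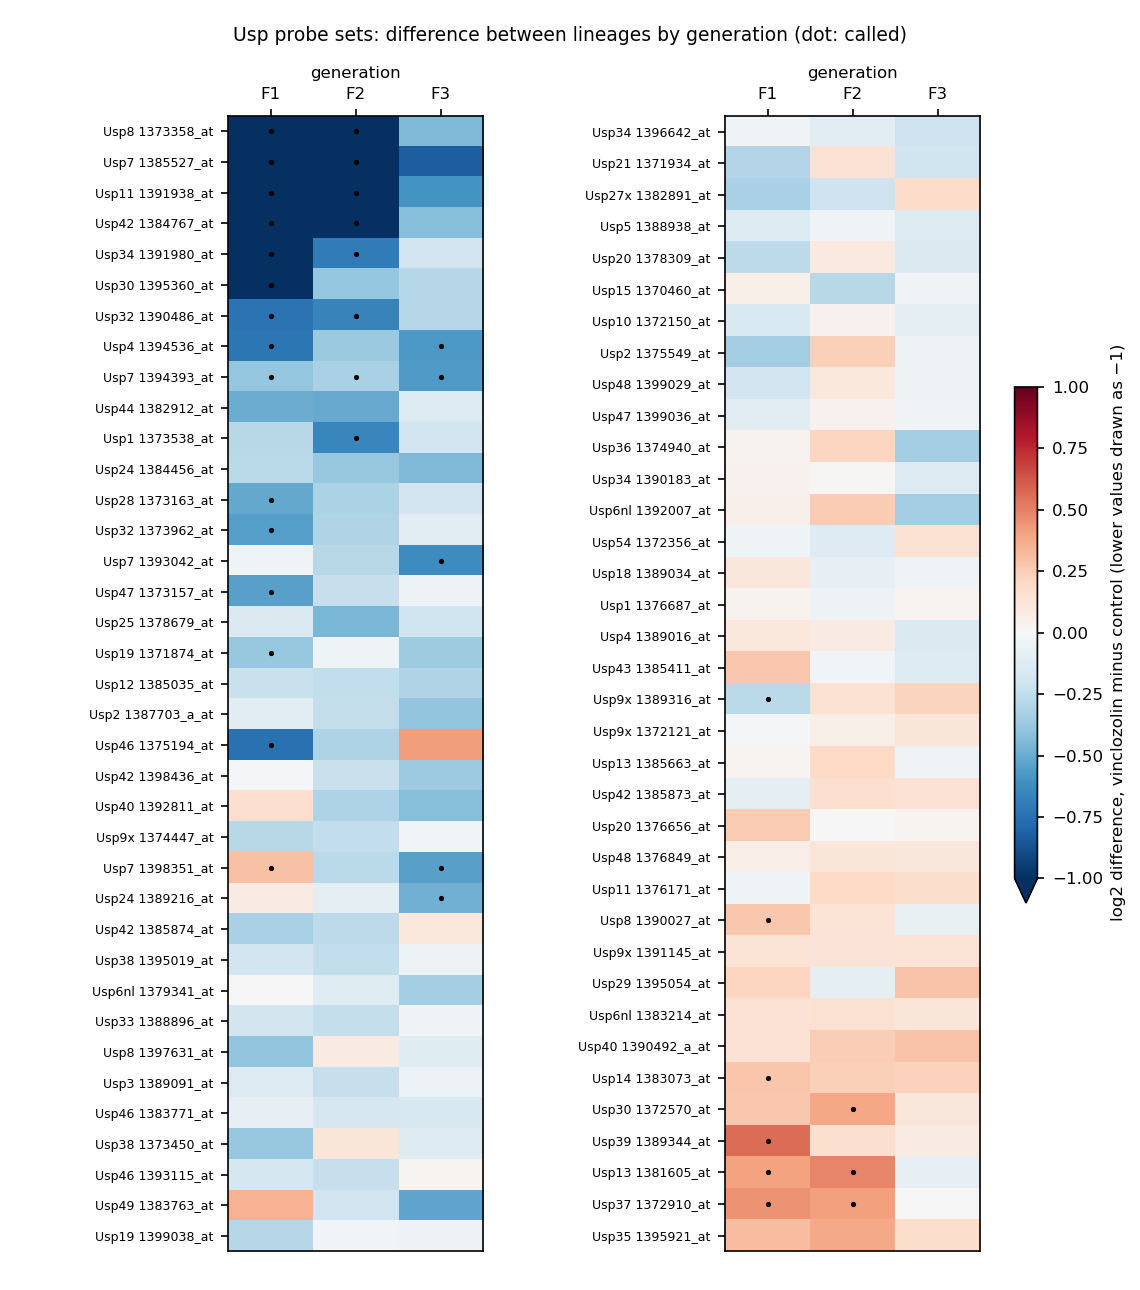
Log2 difference, vinclozolin minus control, of each of the 73 tested probe sets (rows, ordered by the mean of the 3 differences) in F1, F2 and F3 (columns), with dots on called differences and values under −1 drawn as −1. Lower calls crowd at the top of the left panel, and higher calls lie mostly toward the foot of the right one. Usp7 1398351_at, called higher in F1, stands in the left panel, and Usp9x 1389316_at, called lower in F1, in the right one. There are fewer dots in the F3 column (5) than in the F1 column (21).

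Usp8 holds the largest called difference of the family on the log2(value + 16) scale. Its protein sits on endosomes, where it takes ubiquitin off receptors such as the EGF receptor and off the sorting machinery, and so decides between recycling and the lysosome. The probe set 1373358_at gave signals of 3.0 and 3.0 on F1 vinclozolin arrays, against 68.0 and 93.6 on F1 control arrays. In F2 it gave 21.0 and 5.0 in the vinclozolin lineage and 59.9 and 76.8 in the control lineage. In F3 it gave 41.8 and 50.6 in the vinclozolin lineage and 82.4 and 56.0 in the control lineage. All 6 vinclozolin arrays lay below all 6 control arrays, a separation in this direction that 7.73% of all tested probe sets showed. On that scale the log2 difference was −2.34 ± 0.24 (SE) in F1 (limma adjusted p = 1.7e-05; −4.34 with a pseudocount of 1 and −1.11 with 64, since the F1 vinclozolin signals were under the filter limit of 14.8, so its size is set by the pseudocount), −1.59 in F2 (adjusted p = 0.000719) and −0.44 in F3 (adjusted p = 0.368), and the F test found it to depend on generation (adjusted p = 0.0205). The brightest probe set of the gene, 1390027_at, went the other way in F1. It gave 433.6 and 438.0 on F1 vinclozolin arrays and 359.7 and 356.9 on F1 control arrays, a log2 difference of 0.27 ± 0.09 (limma adjusted p = 0.0427), and this call was lost in 16 of 26 alternatives. In F2 it gave 437.0 and 403.5 in the vinclozolin lineage and 389.8 and 369.6 in the control lineage, and in F3 361.4 and 386.1 against 380.9 and 406.3, with no call in either. The dim 1397631_at gave 20.7 and 13.1 in F1 vinclozolin and 19.6 and 35.8 in F1 control, 16.5 and 28.9 in F2 vinclozolin and 28.0 and 13.7 in F2 control, and 9.3 and 23.0 in F3 vinclozolin and 17.5 and 18.7 in F3 control. It overlapped between lineages in every generation and was not called.

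**Figure D2:**
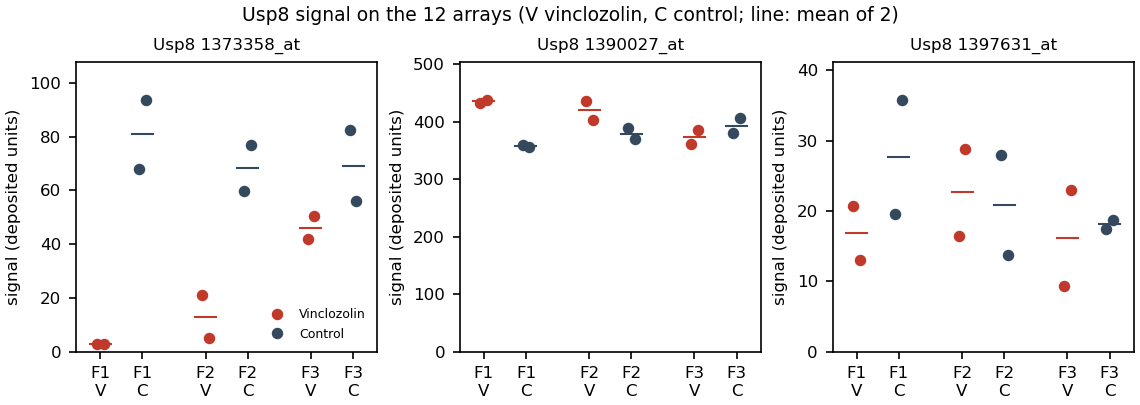
Deposited signal of the 3 Usp8 probe sets on each of the 12 arrays, vinclozolin left of control within each generation. The F1 vinclozolin arrays stand at 3.0 for 1373358_at and above both F1 control arrays for 1390027_at.

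Usp7 was the gene with the most changes in F3. Its protein, also known as HAUSP, removes ubiquitin from p53 and from Mdm2, the ligase that marks p53. All 4 of its probe sets had lower signals in the F3 vinclozolin lineage, and the groups did not overlap for any of them, as was so in this direction for 29.7% of all tested probe sets with 2 arrays against 2. The probe set 1394393_at was the one member called in all 3 generations. It gave 369.0 and 355.1 in F1 vinclozolin and 481.0 and 474.4 in F1 control, 407.7 and 368.4 in F2 vinclozolin and 476.7 and 503.5 in F2 control, and 324.6 and 339.7 in F3 vinclozolin and 506.2 and 492.8 in F3 control. Every vinclozolin value lay below every control value, and the log2 difference was −0.39 ± 0.09 in F1, −0.33 ± 0.09 in F2 and −0.57 ± 0.09 in F3 (limma adjusted p = 0.00621, 0.0251 and 0.00381). The brightest, 1398351_at, changed sides: 659.4 and 726.1 in F1 vinclozolin against 557.6 and 565.3 in F1 control, but 385.0 and 390.5 in F3 vinclozolin against 562.2 and 583.9 in F3 control. In F2 it gave 529.1 and 464.8 in the vinclozolin lineage and 610.7 and 589.2 in the control lineage. Its log2 difference was 0.29 ± 0.09 in F1 (limma adjusted p = 0.0302), −0.27 ± 0.09 in F2 (0.0642) and −0.54 ± 0.09 in F3 (0.00535). The F1 call was lost in 11 of 26 alternatives, with a difference of 0.07 in the covariate fit. The dependence of 1398351_at on generation had the smallest adjusted p of the family (limma F test, 0.00816).

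At 1393042_at, whose difference from 1394393_at and from 1398351_at was called in no single generation, the lineages overlapped in F1, at 454.4 and 380.1 in vinclozolin and 431.7 and 425.9 in control. In F2 the signals were 391.5 and 427.0 in vinclozolin and 495.3 and 502.9 in control, and in F3 349.0 and 272.2 in vinclozolin and 466.5 and 503.3 in control. Of these the F3 difference was called (−0.63 ± 0.12, limma adjusted p = 0.011). The dim 1385527_at gave 0.5 and 10.3 in F1 vinclozolin and 34.5 and 34.0 in F1 control, 2.6 and 9.7 in F2 vinclozolin and 43.0 and 36.1 in F2 control, and 9.7 and 9.2 in F3 vinclozolin and 27.3 and 30.8 in F3 control. It was low on all 6 vinclozolin arrays and was called in F1 (−1.27 ± 0.23, adjusted p = 0.00134; −0.51 with a pseudocount of 64) and F2 (−1.34, adjusted p = 0.00167), with −0.82 in F3 (0.0721). The F3 calls of 1393042_at, 1394393_at and 1398351_at were lost without F3 control replicate 1 (adjusted p = 0.0833, 0.0802 and 0.0704) or replicate 2 (0.161, 0.062 and 0.102), and those of 1393042_at and 1398351_at also without F3 vinclozolin replicate 2 (0.156 and 0.0515), with differences of −0.46 to −0.80. In the covariate fit the F3 calls of 1394393_at and 1398351_at stood and 1385527_at was called as well.

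**Figure D3:**
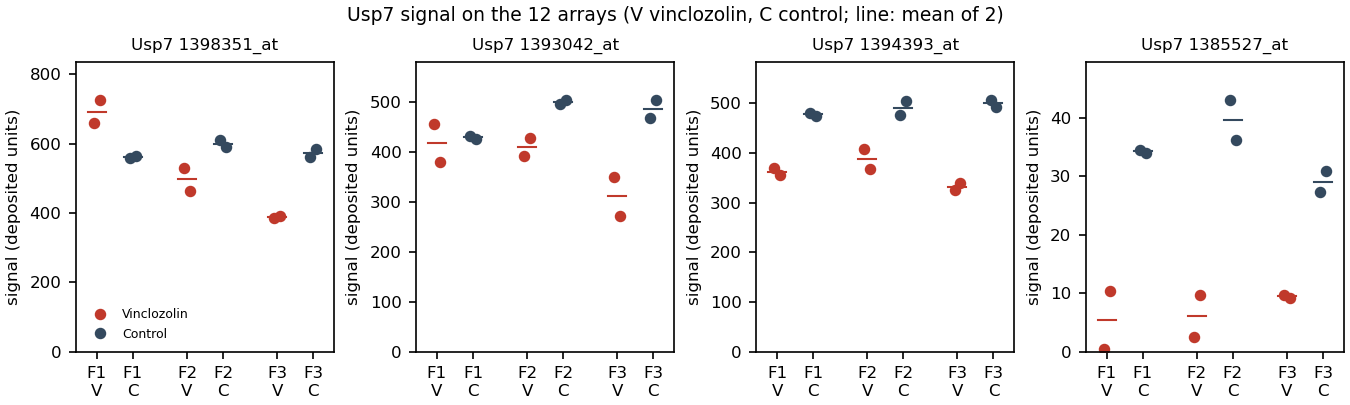
Deposited signal of the 4 Usp7 probe sets on the 12 arrays, vinclozolin left of control within each generation. In F3 both vinclozolin arrays lie below both control arrays in every panel, and in F1 the brightest probe set, 1398351_at, lies above its controls.

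Of the proteases listed for Mdm2 and p53 besides Usp7, Usp10 and Usp2 showed little. Usp42, another p53 protease that was not in that list, was called lower at its dimmest probe set in F1 and F2. The values of its probe sets are given further on. Usp10, which acts on p53 in the cytoplasm, had a mean signal of 627 over the 12 arrays and log2 differences of −0.15, 0.05 and −0.09 that were not called. Usp2, an Mdm2 protease with isoforms described in rat testis, was lower in the mean at 1387703_a_at (−0.25 ± 0.08, limma adjusted p = 0.0279), and 1375549_at was not called (−0.05). Usp4, which acts on the TGF-beta receptor among others, was lower at 1394536_at, with 97.8 and 82.9 in F1 vinclozolin and 159.2 and 158.3 in F1 control, and 101.8 and 106.2 in F3 vinclozolin and 181.5 and 145.7 in F3 control. These F1 and F3 differences passed (−0.72 ± 0.14, limma adjusted p = 0.00212, and −0.57 ± 0.14, adjusted p = 0.0413, the F3 call lost in 14 of 25 alternatives), while the brighter 1389016_at had 0.10, 0.08 and −0.14. Usp24, whose 1389216_at gave 140.5 and 122.9 in F3 vinclozolin and 201.8 and 178.3 in F3 control, was the third gene called in F3 (−0.48 ± 0.12, limma adjusted p = 0.0498, a call lost in 17 of 26 alternatives), and its 1384456_at was called in the mean (−0.36).

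Of the listed proteases of DNA repair (Usp1, Usp3, Usp11, Usp28, Usp47 and Usp48), 4 had a probe set called lower and Usp3 and Usp48 had none. Lower calls made up 13.7% of all tested probe sets in F1, 9.65% in F2 and 19.2% in the mean. The share of all genes with such a call was not counted. Usp11 helps the BRCA2 branch of break repair. Its probe set 1391938_at gave 36.2 and 23.7 in F1 vinclozolin and 114.7 and 133.3 in F1 control. In F2 it gave 41.8 and 40.9 in vinclozolin and 112.2 and 112.2 in control, and in F3 65.2 and 54.6 in vinclozolin and 106.4 and 91.6 in control. The lineages were apart in every generation, with 43.7 ± 14.5 on vinclozolin arrays and 112 ± 13.5 on control arrays (SD, n = 6 each), and the log2 difference was −1.62 ± 0.16, −1.16 ± 0.16 and −0.60 ± 0.16 (limma adjusted p = 8.55e-06, 0.000271 and 0.051). The brighter Usp11 probe set, 1376171_at, gave 625.3 and 520.2 in F1 vinclozolin and 599.5 and 574.0 in F1 control, 614.5 and 649.9 in F2 vinclozolin and 537.8 and 559.6 in F2 control, and 545.2 and 626.0 in F3 vinclozolin and 516.8 and 516.5 in F3 control. It was not called, with log2 differences of −0.04, 0.20 and 0.17.

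Usp1, which with Wdr48 removes ubiquitin from Fancd2 and PCNA, was lower in F2 at 1373538_at (338.3 and 258.9 in vinclozolin, 461.5 and 486.8 in control, log2 difference −0.65 ± 0.14, limma adjusted p = 0.00519). Its brighter 1376687_at lay at 671.0 to 783.6 on vinclozolin arrays and 679.2 to 765.1 on control arrays. Usp28, a protease of the damage checkpoint and of Myc, was lower in F1 (−0.51 ± 0.11, limma adjusted p = 0.00297), with signals of 161.5 to 223.1 on vinclozolin arrays and 233.9 to 252.1 on control arrays. Usp47, of base excision repair, was lower in F1 at 1373157_at (−0.54) and not called at 1399036_at (−0.11). Of the listed proteases of histones H2A and H2B, Usp3, Usp21, Usp27x, Usp44 and the 1 tested probe set of Usp49 had no call; Usp42, another H2B protease that was not in that list, had calls that are given with its values further on. Usp44, known as a mitotic checkpoint enzyme, had a mean difference of −0.38 (limma adjusted p = 0.0777).

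Of the 3 proteases listed under free ubiquitin chains and the proteasome, Usp14 and Usp13 each had a probe set called higher and Usp5 had no call. Higher calls made up 9.41% of all tested probe sets in F1, 4.70% in F2 and 14.1% in the mean. Usp14, which trims chains on the proteasome itself, had a mean signal of 879 and gave 995.4 and 1037.8 in F1 vinclozolin and 833.1 and 839.4 in F1 control, 966.3 and 918.6 in F2 vinclozolin and 785.5 and 809.0 in F2 control, and 936.3 and 882.2 in F3 vinclozolin and 782.9 and 764.8 in F3 control. All 6 vinclozolin arrays lay above all 6 control arrays, as they did for 5.52% of all tested probe sets, and the mean difference was 0.25 ± 0.05 (limma adjusted p = 0.000746). In single generations the F1 difference passed (0.28, adjusted p = 0.0195), and F2 and F3 had 0.24 and 0.23. Usp13, closely related to Usp5, was higher at 1381605_at in F1 (88.4 and 92.7 in vinclozolin, 64.6 and 64.4 in control) and F2 (94.5 and 94.1 in vinclozolin, 62.7 and 62.3 in control). These log2 differences were 0.40 and 0.49 (limma adjusted p = 0.0313 and 0.0177), against −0.09 in F3. Its other tested probe set, 1385663_at, was not called (0.03, 0.20 and −0.04). Usp5 was not called (−0.13, −0.05 and −0.14).

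At the mitochondrion, Usp30 opposes the ubiquitin that parkin adds before mitochondria are degraded. Its dim 1395360_at gave 17.1 and 3.6 in F1 vinclozolin and 48.8 and 43.5 in F1 control (−1.29 ± 0.24, limma adjusted p = 0.00145; −2.37 with a pseudocount of 1 and −0.57 with 64). In F2 it gave 32.4 and 32.5 in vinclozolin and 51.6 and 43.1 in control, and in F3 19.1 and 35.0 in vinclozolin and 30.3 and 41.7 in control, neither of them called. The brighter 1372570_at moved the other way, with 254.7 and 266.5 in F2 vinclozolin and 200.7 and 191.0 in F2 control (0.38 ± 0.12, limma adjusted p = 0.0471, a call lost in 17 of 26 alternatives). It gave 271.4 and 214.3 in F1 vinclozolin and 199.5 and 196.1 in F1 control, and 208.6 and 245.2 in F3 vinclozolin and 196.8 and 219.4 in F3 control. In the mean the dim Usp30 probe set was lower (−0.65) and the bright one higher (0.26), both called. Usp35 (mean 0.29, limma adjusted p = 0.0519) and Usp15 (−0.08), which also act in this pathway, were not.

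Usp34, a large protease that stabilises axin in Wnt signalling, was lower at 1391980_at. That probe set gave 87.9 and 47.5 in F1 vinclozolin and 232.9 and 204.4 in F1 control, 153.3 and 100.0 in F2 vinclozolin and 236.5 and 189.6 in F2 control, and 195.5 and 147.7 in F3 vinclozolin and 189.8 and 203.8 in F3 control. The lineages were apart in F1 (−1.53 ± 0.21, limma adjusted p = 0.000169) and F2 (−0.70, adjusted p = 0.0405) and overlapped in F3 (−0.19). Usp34 1390183_at gave 797.6 and 814.4 in F1 vinclozolin and 819.1 and 743.4 in F1 control, 846.6 and 793.8 in F2 vinclozolin and 859.6 and 772.9 in F2 control, and 839.9 and 844.6 in F3 vinclozolin and 925.9 and 928.5 in F3 control, and was not called. The remaining probe set of Usp34, 1396642_at, was not called either. It gave 59.4 and 72.5 in F1 vinclozolin and 61.8 and 74.5 in F1 control, 56.8 and 49.6 in F2 vinclozolin and 58.7 and 58.2 in F2 control, and 51.6 and 57.2 in F3 vinclozolin and 56.3 and 74.8 in F3 control. Usp25, of tankyrase and immune signalling, was lower in the mean (−0.27, limma adjusted p = 0.0397, a call lost in 14 and reversed in 1 of 28 alternatives).

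Usp42, a p53 and histone H2B protease that mouse studies place in spermatogenesis, had 4 tested probe sets. The dimmest, 1384767_at, gave 8.3 and 2.9 in F1 vinclozolin and 26.6 and 35.6 in F1 control, 9.2 and 5.0 in F2 vinclozolin and 38.5 and 34.2 in F2 control, and 12.2 and 17.6 in F3 vinclozolin and 28.2 and 22.6 in F3 control. It was low on all 6 vinclozolin arrays and was called in F1 (−1.13 ± 0.21, limma adjusted p = 0.00139; −2.40 with a pseudocount of 1 and −0.45 with 64) and F2 (−1.19, adjusted p = 0.00184). The brightest, 1385873_at, gave 551.9 and 415.2 in F1 vinclozolin and 546.7 and 483.0 in F1 control, 571.7 and 550.4 in F2 vinclozolin and 514.4 and 483.5 in F2 control, and 630.7 and 571.7 in F3 vinclozolin and 527.9 and 553.8 in F3 control, with no call. Of the other Usp42 probe sets, 1398436_at gave 102.1 and 100.2 in F1 vinclozolin and 103.7 and 101.8 in F1 control, 92 and 95 in F2 vinclozolin and 105.9 and 118.2 in F2 control, and 82.1 and 69.8 in F3 vinclozolin and 105.0 and 99.7 in F3 control. It was called in the mean (−0.20, limma adjusted p = 0.0383), a call lost in 15 and reversed in 1 of 27 alternatives. Usp42 1385874_at gave 74.5 and 81.3 in F1 vinclozolin and 99.1 and 104.5 in F1 control, 75.0 and 87.2 in F2 vinclozolin and 107.7 and 93.2 in F2 control, and 102.8 and 102.9 in F3 vinclozolin and 96.4 and 93.1 in F3 control, with no call (mean −0.16).

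**Figure D4:**
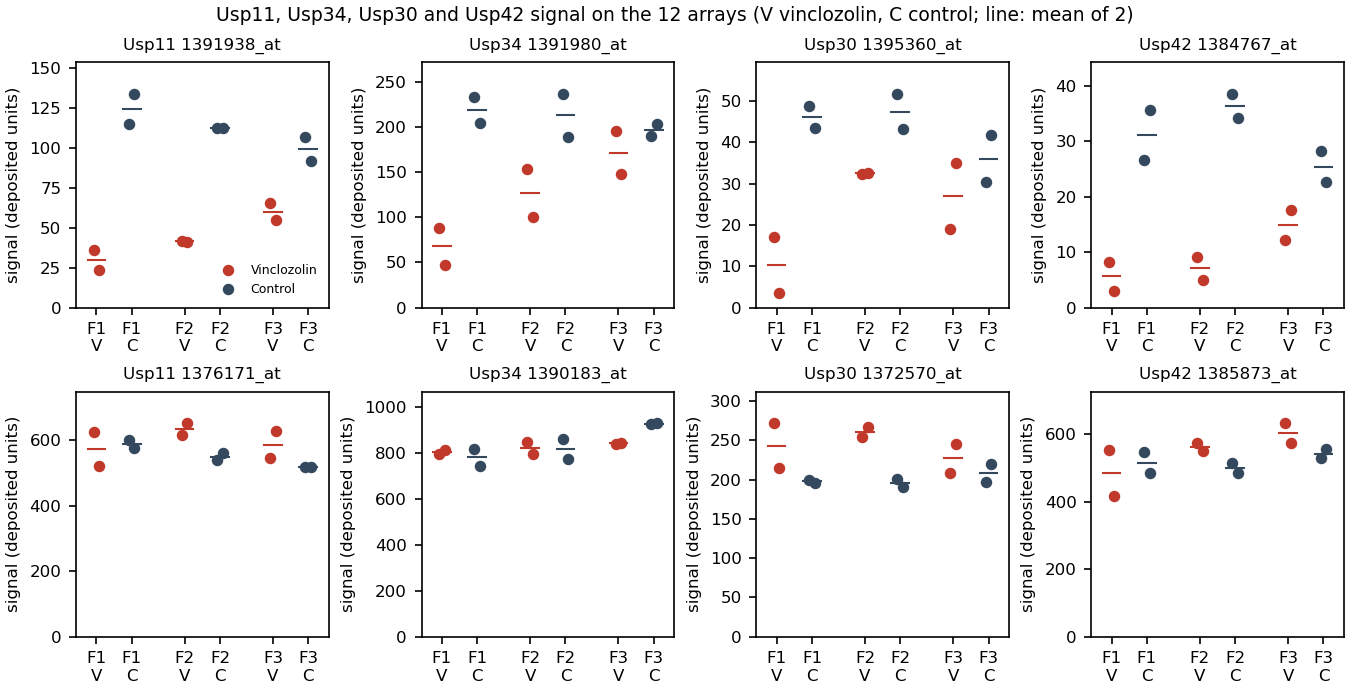
Deposited signal on the 12 arrays of the probe set with the lowest mean log2 difference (top) and the brightest probe set (bottom) of Usp11, Usp34, Usp30 and Usp42. Vinclozolin stands left of control within each generation. The F1 vinclozolin arrays are low in the top panels, which were chosen by their low difference. They lie among or near the control arrays in the bottom ones.

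None of the remaining members had a called log2 difference of 0.8 or more in size. Usp37, a cell cycle protease that stabilises cyclin A, was higher in F1 (465.7 and 619.9 in vinclozolin, 414.4 and 365.7 in control) and F2 (462.7 and 521.6 in vinclozolin, 371.9 and 360.1 in control), with log2 differences of 0.45 and 0.41 (limma adjusted p = 0.0194 and 0.0445, the F2 call lost in 15 and reversed in 1 of 26 alternatives) and 0.00 in F3. Usp39, a splicing factor of the tri-snRNP that lacks the protease's active site, was higher in F1 (403.0 and 490.8 in vinclozolin, 301.3 and 291.0 in control, log2 difference 0.56 ± 0.12, limma adjusted p = 0.00285). Usp46, which like Usp12 works bound to Wdr48, was lower in F1 at 1375194_at (70.8 and 61.4 in vinclozolin, 133.3 and 110.4 in control) and had higher signals without a call in F3 (150.1 and 161.0 in vinclozolin, 125.1 and 101.0 in control). Its log2 difference was −0.74 ± 0.14 in F1, −0.31 in F2 and 0.42 in F3 and depended on generation (limma F test, adjusted p = 0.0142). The other Usp46 probe sets were not called and the F test did not call them: 1383771_at had −0.08, −0.17 and −0.16, and 1393115_at had −0.18, −0.23 and 0.03. Usp12 was below its controls on every vinclozolin array (35.2 to 52.6, against 52.8 to 59.7) without a call (mean −0.26, adjusted p = 0.0575). Both probe sets of Usp32, a protease of the Golgi, were lower in F1 (1390486_at −0.74 and 1373962_at −0.55), and the dimmer 1390486_at also in F2 (−0.67).

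Usp40 was higher in the mean at its bright 1390492_a_at (0.23 ± 0.05, limma adjusted p = 0.00327), where all 6 vinclozolin arrays lay above all 6 control arrays, and 1392811_at had −0.19. Usp19, of quality control at the endoplasmic reticulum, was lower in F1 (1371874_at, −0.38, limma adjusted p = 0.0458, a call lost in 18 and reversed in 1 of 26 alternatives). Usp33, which shares substrates with Usp20, had a mean signal of 694 and a mean log2 difference of −0.15 (adjusted p = 0.045, lost in 16 of 28 alternatives), and the tested Usp20 probe sets were not called. The X-linked Usp9x, of TGF-beta signalling and cell polarity, had 4 tested probe sets, of which 1389316_at was lower in F1 (−0.27, adjusted p = 0.0499, lost in 17 of 25 alternatives) and 1374447_at in the mean (−0.19), while the brightest, 1372121_at, stayed within 0.12 of 0. Usp18, Usp29, Usp36, Usp38, Usp43, Usp54 and Usp6nl had no call. In all, 23 of the 42 tested genes had at least 1 call in a generation or the mean and 19 had none. The share of all tested genes with such a call was not counted, and 33.3% of all tested probe sets were called in the mean. A total of 10 members of 6 genes were too dim to test, with signals of 0.2 to 23.6: 4 probe sets of Usp49, 2 of Usp40 and 1 each of Usp13, Usp20, Usp25 and Usp31, the last of these with no other probe set.

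The bases around the start sites of Usp8, Usp37 and Usp13 are shown because Usp8 holds the largest called difference and Usp37 and Usp13 were the genes called higher in both F1 and F2. They are the RefSeq promoter windows of build GRCr8, 250 bases before to 50 after the start, with matches to the GC box (GGGCGG, or CCGCCC on the other strand) in capitals.
Usp8 (chr3:134415276-134415575, plus strand): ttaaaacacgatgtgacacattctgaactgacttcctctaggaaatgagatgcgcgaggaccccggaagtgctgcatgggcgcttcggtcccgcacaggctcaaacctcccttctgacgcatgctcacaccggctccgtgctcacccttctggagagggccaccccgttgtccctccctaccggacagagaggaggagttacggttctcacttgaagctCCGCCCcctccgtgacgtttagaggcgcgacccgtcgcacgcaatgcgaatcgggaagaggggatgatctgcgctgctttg
Usp37 (chr9:83533123-83533422, minus strand): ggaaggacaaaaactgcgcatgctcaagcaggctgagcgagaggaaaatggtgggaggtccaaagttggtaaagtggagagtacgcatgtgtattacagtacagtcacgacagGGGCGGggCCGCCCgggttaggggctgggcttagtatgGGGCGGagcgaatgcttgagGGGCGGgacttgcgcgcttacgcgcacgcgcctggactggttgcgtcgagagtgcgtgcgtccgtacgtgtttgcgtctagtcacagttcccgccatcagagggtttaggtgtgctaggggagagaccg
Usp13 (chr2:117505193-117505492, plus strand): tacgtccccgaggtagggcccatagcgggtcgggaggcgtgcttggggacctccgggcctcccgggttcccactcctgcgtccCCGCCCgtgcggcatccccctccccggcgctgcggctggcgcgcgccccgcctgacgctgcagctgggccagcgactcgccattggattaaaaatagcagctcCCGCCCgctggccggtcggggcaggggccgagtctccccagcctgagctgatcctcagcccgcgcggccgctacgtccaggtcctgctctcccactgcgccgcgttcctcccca
The Usp8 window held 1 GC box, that of Usp37 held 4 and that of Usp13 held 2. Of 34 member genes with a window in the table, 25 (73.5%) held a GC box, against 33.1% of all 33469 windows. The core of the androgen receptor element, AGAACA or TGTTCT, was in none of the 3 windows, in 4 of the 34 (11.8%) and in 20.7% of all windows. The windows were not matched for base composition or kind of gene, so these shares cannot be read as traits of the family. A match of letters is not a binding site.

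Probe sets of 1 gene often disagreed. In the 21 genes with several tested probe sets, the difference between probe sets in their vinclozolin minus control value was called for 22 of 44 pairs in the mean (50%), in 13 genes, against 48.8% of all 6158 such pairs on the array. In F1 it was 16 pairs (36.4%, against 37.3% of all), in F2 14 (31.8%, against 29.8%) and in F3 2 (4.55%, against 2.29%), those of Usp11 and Usp40. The largest were Usp8 1373358_at minus 1390027_at (−1.57 ± 0.15, limma adjusted p = 1.3e-05), Usp8 1373358_at minus 1397631_at (−1.31), Usp11 1376171_at minus 1391938_at (1.24 ± 0.10, adjusted p = 7e-06), Usp42 1384767_at minus 1385873_at (−0.98), Usp7 1385527_at minus 1398351_at (−0.97) and Usp30 1372570_at minus 1395360_at (0.91).

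The lower calls lay mostly at probe sets other than the brightest of their gene. Of 31 such members 15 were lower in the mean (48.4%) and 0 higher, against 40.6% lower and 6.24% higher among 4486 such probe sets on the whole array. Of the 21 brightest members of their gene 4 were lower and 3 higher, against 16.1% and 18.8% of 3267. Of 21 members alone for their gene 3 were lower and 3 higher, against 12.4% and 17.1% of 8020. In 13 of the 21 genes the lowest mean difference stood at the dimmest probe set and in 5 at the brightest. These shares were not counted over all genes of the array, so they cannot be read as a trait of the family. Over the brightest or only probe set of each of the 42 genes, 6 were higher and 4 lower in F1 (14.3% and 9.52%, against 11.2% and 8.98% of 11287 such probe sets), 3 and 0 in F2 (7.14% higher, against 6.02% higher and 5.09% lower), 0 and 2 in F3 (4.76% lower, against 1.21% higher and 1.51% lower) and 6 and 7 in the mean (14.3% and 16.7%, against 17.6% and 13.5%). Where each probe set lies along its transcript was not analysed here.

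**Figure D5:**
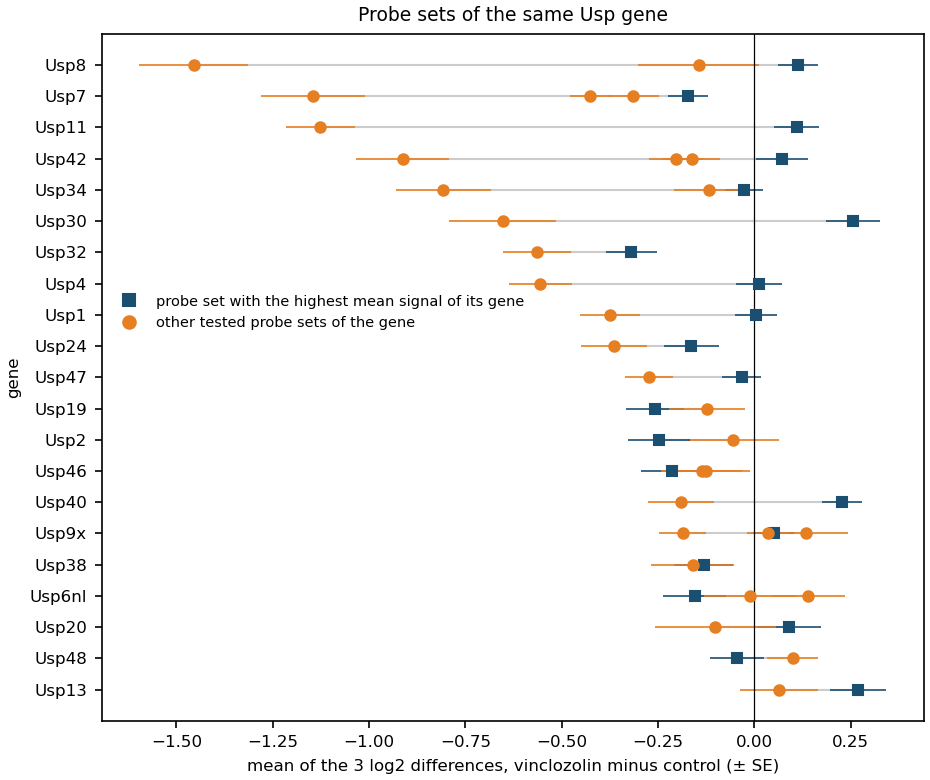
Mean of the 3 log2 differences, vinclozolin minus control (± SE), of every tested probe set of the 21 genes with several, 1 gene per row, with squares for the probe set of highest mean signal and circles for the others. Usp8, Usp11, Usp42, Usp7, Usp30 and Usp34 span the widest ranges, each with a circle far below 0 and a square nearer 0.

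The size of the difference depended on generation for 3 of 73 members (4.11%, against 2.60% of all tested probe sets by limma's F test), the Usp7, Usp46 and Usp8 probe sets above, and Usp11 1391938_at came next (adjusted p = 0.0508). Of the 3 control groups, no member differed (0 of 73 and 0 of all tested probe sets by limma's F test), and 1 had an unadjusted p under 0.05, Usp34 1390183_at at 0.0318 (adjusted p = 1). Outside the family, the 5 probe sets whose log2 values followed Usp8 1373358_at most closely over the 12 arrays were Papola (Pearson r = 0.993), Ddx3x (0.987), Pbrm1 (0.985), Zyg11b (0.984) and Ccdc127 (0.984), which share the lineages, the arrays and their RNA quality. Their F1 log2 differences were −0.93, −2.20, −1.84, −1.46 and −0.65.

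Other genes of ubiquitin removal, transfer and recognition were counted from lists. Of all tested probe sets 23.1% were called in F1, 14.3% in F2, 3.11% in F3 and 33.3% in the mean. Of 42 tested probe sets of the other deubiquitinase families, 4 were higher and 7 lower in F1 (26.2% called), 1 and 4 in F2 (11.9%), 0 in F3 (7 at an unadjusted p under 0.05 in limma) and 5 and 8 in the mean (31.0%). Cyld, which cuts linear chains in NF-kappaB signalling, was lower in F1 at both probe sets (1391091_at −0.95 and 1379287_at −0.64). Otud4 was lower in F1 at 1397207_at (−1.26) and not called at 1374438_at (−0.12), and Mindy2 was higher at 1384609_a_at (0.84) and not called at the other 3 (−0.18, −0.16 and 0.05). Of 50 probe sets of ubiquitin precursors and of activating and conjugating enzymes, 1 was higher and 18 lower in F1 (38.0%), 1 and 9 in F2 (20.0%), 0 in F3 (13 at an unadjusted p under 0.05 in limma) and 3 and 18 in the mean (42.0%). The conjugating enzyme Ube2g1 was lower at 1370501_at in F1 (−1.67) and F2 (−1.40) and not called at 1398864_at (−0.03 and 0.01). Ube2h was lower in F1 at 1383023_at (−1.24) and 1390157_at (−1.11) and not called at 1372221_at (−0.26). Of 48 probe sets of partners and substrates, 5 were higher and 10 lower in F1 (31.2%), 3 and 8 in F2 (22.9%), 1 and 2 in F3 (6.25%) and 10 and 12 in the mean (45.8%). Rnf41, a ligase that Usp8 stabilises, was lower at 1380569_at in F1 (−0.96), F2 (−0.76) and F3 (−0.56) and not called at 1384374_at (−0.44, 0.09 and 0.43) or 1391252_at (−0.12, −0.16 and −0.02). Egfr was lower in F1 at 1370830_at (−1.41) and higher in the mean at 1381145_at (0.21), and Mdm2 was lower in F1 at 1383485_at (−1.17) and 1384427_at (−0.81) and higher in the mean at 1383288_at (0.16).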

How the data were processed

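Total RNA of 12 pools of embryonic testes was hybridised to Affymetrix rat arrays. The deposited values were linear signal intensities per probe set, from 0 to 9534.9 with 33 zeros, scaled alike on all arrays by the authors. The number of arrays limits the precision, and the software behind the signals was not given in the sources used here. Lineage and generation came from the sample titles.

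Of 31099 probe sets 57 were controls. Symbols came from the platform annotation: 20826 probe sets had 1 symbol, 436 several and 9780 none. All 43 member gene identifiers kept their symbol in the current rat gene table. Values were taken as log2(value + 16), which shrinks the changes of dim probe sets, and the 9313 with the lowest 30% of means (signal under 14.8) were left out. The model had a mean for each of the 6 groups and used the 12 arrays together (R 4.3.3; limma 3.58.1 with lmFit and a trended eBayes; 6 residual and 8.97 prior degrees of freedom), with contrasts per generation, their mean and F tests across generations and across control groups. Within-gene pairs were tested likewise on the difference of their log2 values. Adjusted p under 0.05 (Benjamini-Hochberg) was called. Exact tests of 2 against 2 arrays cannot go below p = 0.333. The code was tested on simulated data.

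Values on all arrays are given for member probe sets with a called log2 difference of at least 0.8, together with the other probe sets of their gene, the 8 brightest members are named, and other rules took the 6 largest pairs, the 4 smallest p per F test and examples per list. Further members were named after their values were seen. Signals order the probe sets of a gene only to name the brightest, since levels also depend on the probes. Members, lists and tests were chosen with earlier results of these data known. Alternatives covered the pseudocount, filter, normalization, weights, trend, replicate block, RNA quality and the arrays used.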

Additional observations from a re-analysis of the deposited data

Results flagged for a closer look

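The vinclozolin minus control difference of 3 Usp probe sets depended on generation in limma's F test of the interaction. Usp7 1398351_at (adjusted p = 0.00816) had log2 differences of 0.29 in F1, −0.27 in F2 and −0.54 in F3. Usp46 1375194_at (adjusted p = 0.0142) had −0.74 in F1, −0.31 in F2 and 0.42 in F3. Usp8 1373358_at (adjusted p = 0.0205) had −2.34 in F1, −1.59 in F2 and −0.44 in F3. The beta-actin 5′ to 3′ ratio of the vinclozolin arrays also differed between generations, at 0.192 and 0.149 in F1, 0.246 and 0.219 in F2 and 0.395 and 0.360 in F3, and the dependence on generation was not tested with that ratio as a covariate.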

How the results depend on the processing

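Of 1695 values of called members under the alternatives, 1374 kept direction and call, 303 lost the call and 18 reversed. Counts of called members that moved by over 1.5 times were F2 7 with a pseudocount of 1, F3 3 without a filter and with quantile, median or cyclic loess scaling, F3 14 with array weights, F2 7 and F3 2 without the trend, F1 13 and F3 12 from the 4 arrays of a generation, and 18 for the mean without F2. A fit and adjustment over only the brightest or only probe set of each gene gave 9 in F1, 1 in F2, 1 in F3 and 13 in the mean. The counts over such probe sets given earlier came from the main fit. Leaving out the dimmer 50% of probe sets gave 12 pairs. The beta-actin covariate gave 0 in F1, F2, the mean and the pairs (8, 9, 9 and 6 at an unadjusted p under 0.05 in limma) and 3 in F3. The split of higher and lower calls moved to 3 and 16 in F1 under quantile and cyclic loess scaling, to 6 and 6 (median), 2 and 10 (quantile) and 1 and 11 (loess) in F2, and to 11 and 15 in the mean (median). Leaving out 1 array gave 14 to 28 in F1, 4 to 19 in F2, 0 to 11 in F3, 22 to 35 in the mean and 15 to 24 pairs; F2 had 5 or 4 without F2 control replicate 1 or 2, 5 without F2 vinclozolin replicate 2 and 19 or 18 without F1 vinclozolin replicate 1 or 2, and F3 had 3 without F3 vinclozolin replicate 1 or an F1 or F2 control. The replicate block gave 21 in F1, 10 in F2, 5 in F3, 28 in the mean and 23 pairs; the numbers did not pair the samples (correlations of deviations of −0.0932 to 0.0678 over 15 pairs of groups). Under the covariate the sign turned for Usp34 1391980_at (0.91 in F1, 0.89 in F2, 0.68 in the mean), Usp37 (−0.52, −0.23 and −0.31), Usp19 1371874_at (0.57 in F1, 0.32 in the mean), Usp47 1373157_at (0.21 and 0.19), Usp46 1375194_at (0.0693 in F1), Usp4 1394536_at (0.07 in F1) and, in the mean, Usp9x 1374447_at (0.11), Usp25 (0.82), Usp24 1384456_at (0.43), Usp7 1393042_at (0.16) and Usp42 1398436_at (0.0275), and without F3 for the mean of Usp7 1398351_at (0.0137). The causes were not tested.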
